A study of Mus musculus with 3 samples.

Results

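The nuclei described here were 874 of the 43463 kept nuclei (2.01%) in single-nucleus RNA sequencing of the mouse prefrontal cortex, chosen because they carried transcripts of Slc6a13 and Ranbp3l, genes used as markers of meningeal fibroblasts. A nucleus was selected when it had at least 2 unique molecules (UMIs, each a single counted transcript) summed over Slc6a13 and Ranbp3l, when this sum was above its sum for Slc47a1, Slc26a7 and Foxd1, when it had no UMI of the endothelial gene Flt1, and when it had at most 1 UMI over the neuronal genes Slc17a7, Gad1 and Gad2. Every nucleus first had to hold at least 200 genes and under 10% mitochondrial counts. These values chose the nuclei, so the levels of the genes of the rule are given below as a description and not as a finding.

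The study examined how loss of Nav1, a gene for a neuronal microtubule-associated protein, changes behavior and the brain, and the series holds 3 samples of prefrontal cortex, all labelled as from male mice of 6 to 8 weeks. The C57BL/6J library pooled 5 wild-type mice, and the Nav1 KO library pooled 4 mice on the C57BL/6J background that were homozygous for a Cas9-made deletion within exon 1 of Nav1. The remaining library came from BTBR T+ Itpr3tf/J, an inbred strain, with the number of mice and any pooling not given in the sources used here. Per the labels' shared protocol, which names the Nav1 KO and C57BL/6 mice alone, nuclei were sorted to a mixture of about 60% NeuN+ and 40% NeuN- before capture, and each genotype or strain was a single library, so no difference between libraries had a replicate. The 3 libraries held 14630, 14056 and 14777 kept nuclei for C57BL/6J, Nav1 KO and BTBR, with 38704723, 50965774 and 48939692 counts.

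Meningeal fibroblasts build the collagen-rich membranes that wrap the brain. They lay down the basement membrane at the brain surface and secrete signals such as retinoic acid, insulin-like growth factors and bone morphogenetic proteins. Fibroblasts of the inner layers, the pia and arachnoid, are also known for many membrane transporters, among them Slc6a13, a transporter of GABA and taurine. Ranbp3l encodes a Ran-binding protein described as a nuclear export factor for Smad proteins.

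The selected nuclei numbered 184, 381 and 309 for C57BL/6J, Nav1 KO and BTBR, and together gave 307905, 819705 and 512567 counts. They were shallow, with a median of 976, 1550 and 1169 UMIs and of 598, 861 and 671 genes, below the medians over all kept nuclei of 2074, 2754 and 2510 UMIs. The deepest one held 7266, 11410 and 14212 UMIs. No barcode of a selected nucleus was shared between libraries.

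The labels describe the cells of all 3 samples as neurons, while the rule capped neuronal counts in the selected nuclei. Without the genes of the rule, all 13 remaining genes of a meningeal fibroblast marker list were detected in the selected nuclei of every library, and they summed to 4797, 4594 and 4786 CPM (counts scaled to the same library total) in C57BL/6J, Nav1 KO and BTBR, against 54.1, 61.8 and 51.8 CPM in excitatory neuron nuclei. Slc7a11, a cystine and glutamate antiporter, gave 3241, 2781 and 3114 CPM of these sums, and it was at 441, 504 and 416 CPM in nuclei chosen by astrocyte genes. Col1a2, a chain of fibrillar collagen I, was at 221, 257 and 240 CPM, and Dcn, the proteoglycan decorin, at 146, 271 and 178 CPM. The 7 excitatory neuron markers outside the rule summed to 753, 589 and 669 CPM in the selected nuclei, with Grin2b giving the most counts, and to 2214, 2076 and 2143 CPM in the excitatory nuclei.

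Slc6a13 was at 734, 903 and 923 CPM in the selected nuclei of C57BL/6J, Nav1 KO and BTBR, against 5.00, 14.2 and 11.9 CPM in all other kept nuclei. Ranbp3l was at 1624, 1268 and 1574 CPM, against 13.2, 26.0 and 23.3 CPM. The rule fixed both gaps. Thinning to 1000 UMIs a nucleus kept 88, 308 and 192 of the selected nuclei and left out 96, 73 and 117 shallower ones. At this depth Slc6a13 was found in 43.2%, 53.2% and 55.2% of those kept and in 0.112%, 0.130% and 0.161% of excitatory neuron nuclei, which served as the background for free RNA. Ranbp3l was found in 75.0%, 68.2% and 73.4% of the same selected nuclei and in 0.298%, 0.311% and 0.350% of excitatory nuclei. The choice of the excitatory class also capped the UMIs of Slc6a13 and Ranbp3l together. Its low shares were therefore partly fixed by that choice and may understate the background. Without thinning, all selected nuclei together showed Slc6a13 in 64.1%, 79.8% and 74.8% and Ranbp3l in 89.7%, 86.9% and 91.9%. The median depth without thinning was 3403, 4197.5 and 3578 UMIs in the excitatory nuclei, several-fold above that of the selected nuclei.

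The genes of the contrasting side of the rule were not absent. Slc47a1, a toxin and drug efflux transporter, was at 26.0, 24.4 and 3.90 CPM, and Slc26a7, an anion exchanger, at 19.5 and 2.44 CPM in C57BL/6J and Nav1 KO. No Slc26a7 count was seen in BTBR, which allows a level of up to 5.85 CPM. Foxd1, a forkhead transcription factor of the meninges, was at 244, 400 and 363 CPM, and 33.7%, 53.8% and 42.7% of the selected nuclei held a UMI of at least 1 of the 3 genes. Interval estimates in the text are exact 95% intervals and cover counting error only.

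At the edge of the rule, nuclei with exactly 2 UMIs of Slc6a13 and Ranbp3l numbered 62, 86 and 84, and nuclei with 1 UMI, just outside, numbered 168, 184 and 221. Slc7a11 was at 2141, 2288 and 1957 CPM just inside and at 628, 869 and 496 CPM just outside. Col1a2 was at 190, 200 and 140 CPM inside and at 34.9, 88.7 and 31.4 CPM outside. The nuclei with 1 UMI were therefore lower for these genes than those with 2 UMIs in every library, and still above the level of all other kept nuclei, where Col1a2 was at 6.43, 16.6 and 8.18 CPM.

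Markers of other cell types were measured in the selected nuclei for the whole of each list. All 10 astrocyte markers were detected, with a sum of 2537, 2307 and 2224 CPM and Slc1a2, the main astrocytic glutamate transporter, the most abundant at 1682, 1185 and 1256 CPM. In nuclei chosen by the astrocyte genes Aqp4, Aldh1l1 and Slc7a10 (at least 2 UMIs) the same list summed to 7047, 5842 and 5621 CPM. A UMI of Aqp4, Aldh1l1 or Slc7a10 was present in 16.3%, 26.0% and 16.5% of the selected nuclei. Of the 10 endothelial markers, 3, 7 and 7 were detected, with Flt1 at 0 by the rule and Mecom at 0, and a sum of 68.2, 105 and 42.9 CPM. Of the 12 pericyte and smooth muscle markers, 7, 10 and 9 were detected and summed to 578, 866 and 1130 CPM, with Vtn leading at 305, 478 and 700 CPM and Acta2 at 0 in every library. Of the 8 ependymal and choroid plexus markers, Kl led at 45.5, 61.0 and 62.4 CPM, and Ttr and Folr1 were at 0.

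Of the 8 olfactory ensheathing glia markers, 6, 8 and 7 were detected and summed to 1000, 1538 and 1572 CPM, mostly from Apod, a lipocalin, at 715, 1100 and 1124 CPM. The 12 microglia and macrophage markers summed to 94.2, 142 and 127 CPM, with Pf4 and Cd163 at 0. Oligodendrocyte markers summed to 406, 426 and 503 CPM, oligodendrocyte precursor markers to 117, 201 and 195 CPM with Pdgfra the most abundant, and inhibitory neuron markers to 354, 307 and 394 CPM. Striatal medium spiny neuron markers summed to 403, 242 and 363 CPM and olfactory bulb mitral or tufted cell markers to 42.2, 64.7 and 85.8 CPM. A UMI of Slc17a7, Gad1 or Gad2 was present in 16.3%, 28.9% and 29.4% of the selected nuclei. The part of free RNA or of doublets in these sums was not tested.

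Of the kept nuclei of C57BL/6J 1.26% (95% interval 1.08 to 1.45) were selected, of those of Nav1 KO 2.71% (2.45 to 2.99), and of those of BTBR 2.09% (1.87 to 2.33). The share in Nav1 KO was 2.16 times (1.80 to 2.58) that in C57BL/6J, the share in BTBR was 1.66 times (1.38 to 2.01) that in C57BL/6J, and Nav1 KO was 1.30 times (1.11 to 1.51) BTBR. Shares of other classes differed between libraries as well. The class chosen by at least 2 UMIs of Slc47a1, Slc26a7 and Foxd1 held 0.923%, 2.60% and 1.35% of the kept nuclei. That chosen by at least 2 UMIs of the astrocyte genes Aqp4, Aldh1l1 and Slc7a10 held 0.595%, 1.75% and 1.496%. A class chosen by at least 2 of Vtn, Atp13a5, Rgs5 and Myh11 held 0.273%, 1.17% and 0.697%. All of them lacked Flt1, held at most 1 neuronal UMI and did not overlap, so nuclei with such UMIs outside them were not counted. The first also needed a sum above that of Slc6a13 and Ranbp3l. The others held at most 1 UMI of that pair and at most 1 of the genes of the first class. Excitatory neuron nuclei were 18.6%, 27.5% and 25.4%, and endothelial nuclei 0.171%, 0.320% and 0.135%, so that BTBR stood above C57BL/6J for each of these classes but the endothelial one. The order of the 3 libraries was also the order of their median depth, and a deeper nucleus has more chances to show 2 UMIs. With every nucleus thinned to 500 UMIs, which left none out, the shares were 0.704%, 1.35% and 1.22%, and with thinning to 1000 UMIs, which left out 2394, 1249 and 2096 shallower nuclei and among them 96, 73 and 117 of the selected ones, they were 0.531%, 1.84% and 1.29%. C57BL/6J stayed lowest at both depths, while Nav1 KO and BTBR had overlapping intervals at 500 UMIs. The sort on NeuN, the pooling and the amount of meninges left on each dissection can set these shares, and with 1 library a group they cannot be told apart from genotype or strain.

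**Figure D1:**
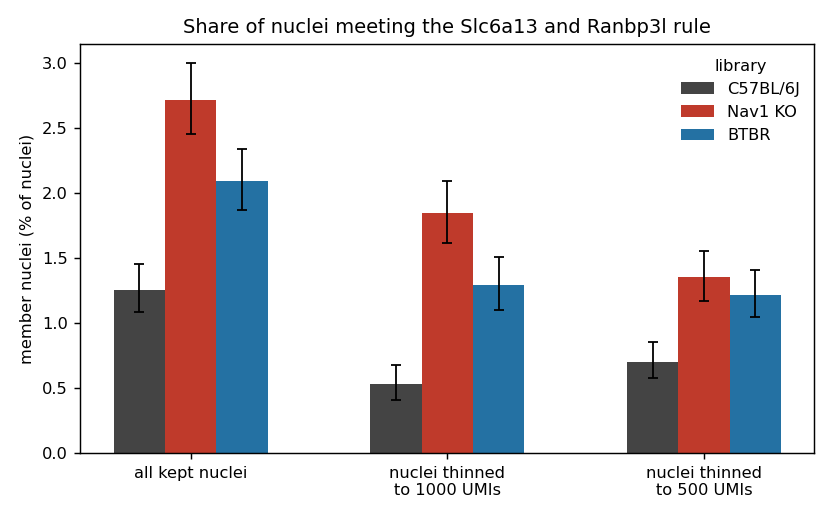
Percent of kept nuclei that met the rule in each library, without thinning and after thinning to 1000 or 500 UMIs a nucleus, with exact 95% intervals that cover counting error only. C57BL/6J was lowest under all 3, at 1.26%, 0.531% and 0.704%.

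The genes that led the selected nuclei over all other kept nuclei were ranked by the lowest fold among the 3 libraries with 5 CPM added to both sides. This ranking is a description, since the same nuclei were chosen from the rest. After the rule genes, Slc7a11 led at 3241, 2781 and 3114 CPM against 54.1, 92.4 and 81.1 CPM, a fold of at least 28.6 in each library. Ptgds, the prostaglandin D synthase that is abundant in the meninges, was at 5495, 12518 and 11655 CPM, with a lowest fold of 23.2. Slc13a4, a sodium-coupled sulfate transporter, was at 231, 306 and 443 CPM (lowest fold 22.7), and Aebp1, a collagen-binding secreted protein, at 425, 855 and 899 CPM (22.4). Slc22a8, an organic anion transporter, was at 211, 274 and 252 CPM (22.3), and Slc6a20a, a transporter of proline and related imino acids, at 533, 560 and 593 CPM (22.0).

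**Figure D2:**
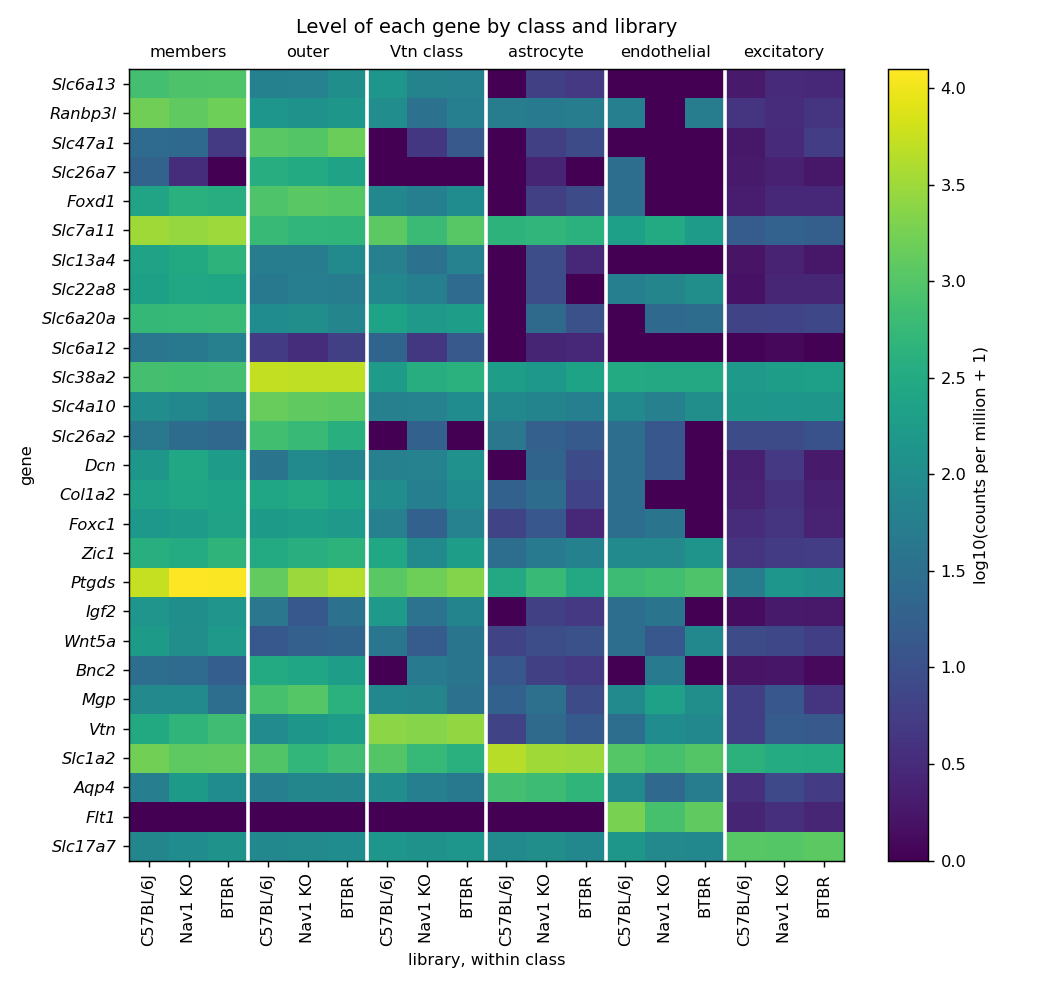
Color shows log10(CPM + 1) of the rule genes and of chosen genes in the class sum of each library, with the selected nuclei headed members, the nuclei chosen by Slc47a1, Slc26a7 and Foxd1 headed outer, and the other classes headed by the cell type or gene of their rule. Among these classes Slc6a13 and Ranbp3l stood above 700 CPM in the selected nuclei alone, as the rule fixed, while Slc7a11 reached 2781 to 3241 CPM there and 477 to 589 CPM in the outer class.

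The first class for comparison was a second group of meningeal fibroblast nuclei, those with at least 2 UMIs of Slc47a1, Slc26a7 and Foxd1 and a lower sum for Slc6a13 and Ranbp3l. They numbered 135, 366 and 200, with median depths of 1355, 1923 and 1546.5 UMIs, and are called the Foxd1 and Slc47a1 nuclei here. Counts were summed per library and class, and the classes were compared with edgeR's quasi-likelihood test with library as a block, the rule genes left out. The p-values therefore measure the spread between 3 libraries that differ in genotype or strain. Of 7613 genes tested, 401 (5.27%) were higher and 431 (5.66%) lower in the selected nuclei at a Benjamini-Hochberg adjusted p under 0.05, and 819 of these 832 genes had the same direction in all 3 libraries. The median log2 fold change over all genes tested was 0.0075.

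Transporters separated the classes in both directions. Of 40 solute carriers listed, 30 were tested, 13 were higher and 9 lower, with a median log2 fold change of 0.52. Slc6a12, a betaine and GABA transporter, was at 39.0, 43.9 and 60.5 CPM in C57BL/6J, Nav1 KO and BTBR, and at 4.09, 2.44 and 4.89 CPM in the Foxd1 and Slc47a1 nuclei. The classes did not overlap, and the difference of 12.9-fold (log2 3.69, SE 0.44, adjusted p = 1.48e-05) was the largest among higher genes named by the rule for genes in the text. Slc16a12, a creatine transporter, followed with 8.84-fold, at 71.5, 70.8 and 87.8 CPM against 8.18, 4.88 and 14.7 CPM.

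Slc7a11 was 5.72-fold higher, with 589, 504 and 477 CPM in the Foxd1 and Slc47a1 nuclei (log2 2.52, SE 0.11, adjusted p = 8.32e-11). Slc6a20a was 5.90-fold, Slc22a2, an organic cation transporter, 5.44-fold and Slc13a4 5.15-fold higher. The organic anion transporters Slc22a8 and Slc22a6 were 4.78-fold and 4.13-fold higher, and the glutamate transporter Slc1a3, at 1124, 1131 and 1264 CPM against 376, 370 and 460 CPM, was 2.88-fold higher. The other members that were higher were Slc13a3, Slc22a23, Slc19a1, which carries folate, and Slc20a1, which carries phosphate. Slc6a20a lies beside its near paralog Slc6a20b, and how reads shared by the pair were counted was not examined.

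The transporters of the opposite direction were as distinct. Slc38a2, a carrier of small neutral amino acids, was at 770, 728 and 759 CPM in the selected nuclei and at 5249, 5058 and 5031 CPM in the Foxd1 and Slc47a1 nuclei, a log2 fold change of -2.79 (SE 0.11, adjusted p = 2.51e-11). Slc4a10, a sodium-driven bicarbonate transporter, was at 101, 81.7 and 58.5 CPM against 1391, 1232 and 1181 CPM (log2 -4.02). Slc26a2, a sulfate transporter, was at 42.2, 26.8 and 23.4 CPM against 712, 575 and 372 CPM (log2 -4.22). On a log scale, each of these gaps was several times wider than the spread over libraries within either class. The sulfate carriers Slc13a4 and Slc26a2 thus differed in opposite directions. Slc35g1, Slc12a7, the vitamin C transporter Slc23a2, the monocarboxylate transporters Slc16a1 and Slc16a11 and the chloride cotransporter Slc12a2 were also lower.

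**Figure D3:**
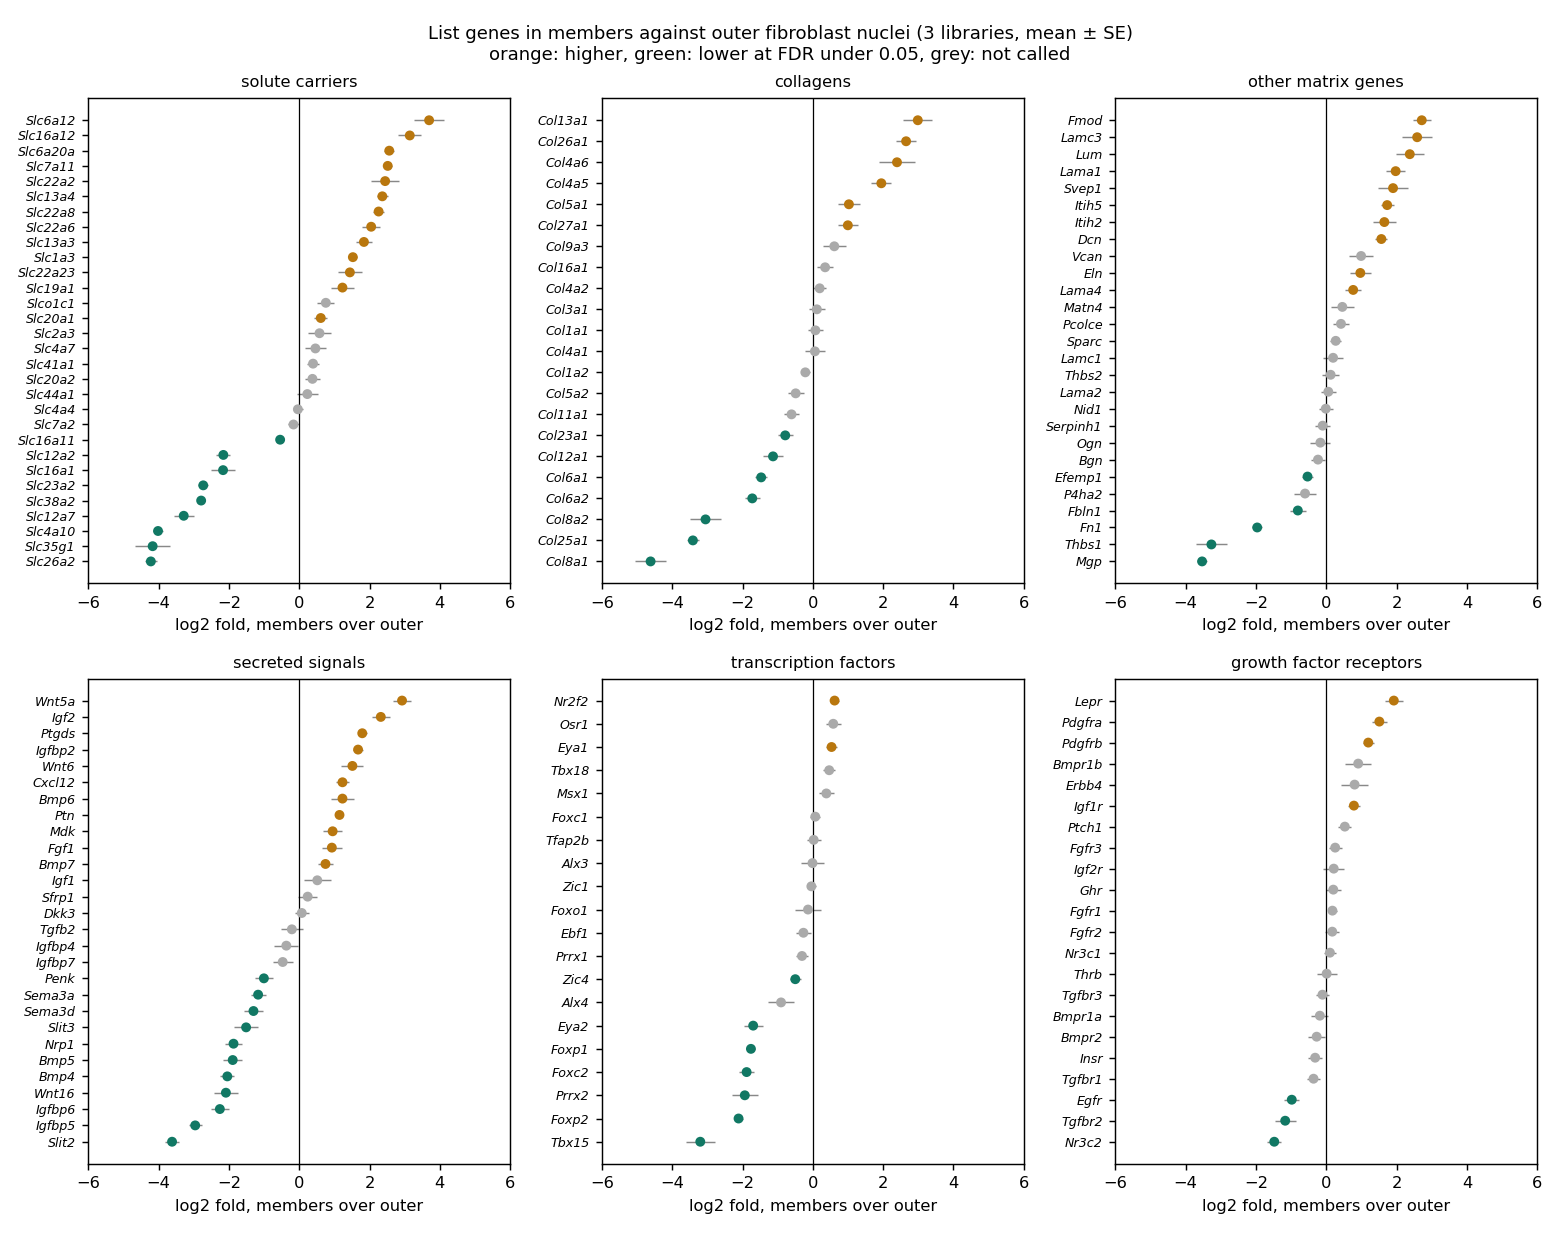
Fitted log2 fold change (point) and its SE (line) of tested genes of 6 lists, selected nuclei (members) over the Foxd1 and Slc47a1 nuclei (outer), from edgeR over 3 libraries, in orange where higher, in green where lower and in grey where not called. The solute carriers ran from -4.22 for Slc26a2 to 3.69 for Slc6a12, and the transcription factors from -3.20 for Tbx15 to 0.62 for Nr2f2.

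Matrix genes also divided. Of 28 collagens listed, 22 were tested, 6 were higher and 7 lower (median log2 fold change 0.07). Col13a1, a transmembrane collagen, was at 58.5, 39.0 and 50.7 CPM against 4.09, 3.66 and 9.78 CPM (7.93-fold), and Col26a1 at 117, 69.5 and 89.7 CPM against 12.3, 13.4 and 12.2 CPM (6.30-fold). Col4a6 and Col4a5, chains of basement membrane collagen IV, were 5.26-fold and 3.86-fold higher, and Col5a1 and Col27a1 about 2-fold. Col8a1, a network-forming collagen, was at 0, 3.66 and 1.95 CPM against 69.6, 69.6 and 53.8 CPM (log2 -4.61), and Col25a1 at 55.2, 31.7 and 19.5 CPM against 462, 348 and 262 CPM (log2 -3.41). Col8a2, Col6a2, Col6a1, Col12a1 and Col23a1 were lower as well. The fibrillar collagen gene Col1a2 was not called, with a log2 fold change of -0.21 (SE 0.12, adjusted p = 0.348).

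Of 35 other matrix genes, 27 were tested, 10 were higher and 5 lower (median log2 fold change 0.27). The proteoglycan genes Fmod (fibromodulin), Lum (lumican) and Dcn were 6.56-fold, 5.18-fold and 2.96-fold higher, with Dcn at 36.8, 87.9 and 70.9 CPM in the Foxd1 and Slc47a1 nuclei. The laminin chains Lamc3 and Lama1 were 5.99-fold and 3.92-fold higher, and Lama4 1.70-fold. Mgp, matrix Gla protein, was at 84.4, 89.1 and 29.3 CPM against 802, 1048 and 416 CPM (log2 -3.54), and fibronectin, Fn1, at 110, 131 and 91.7 CPM against 356, 472 and 445 CPM (log2 -1.97). Thbs1, Fbln1 and Efemp1 were also lower. Col9a2, which is on no list, was 6.54-fold higher, and Htra3, a secreted serine protease, was at 3.25, 7.32 and 1.95 CPM against 61.4, 122 and 70.9 CPM.

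Among 43 secreted signals and their binding proteins, 28 were tested, 11 were higher and 11 lower (median log2 fold change -0.07). Wnt5a, a Wnt ligand, was at 169, 104 and 164 CPM against 12.3, 17.1 and 19.6 CPM (7.59-fold, adjusted p = 3.20e-07), and Notum, an enzyme that inactivates Wnt proteins, at 90.9, 73.2 and 133 CPM against 8.18, 12.2 and 22.0 CPM (6.32-fold). Igf2 was 4.99-fold, Ptgds 3.46-fold and Igfbp2 3.19-fold higher, and Wnt6, Cxcl12, Bmp6, Ptn, Mdk, Fgf1 and Bmp7 were higher by 1.68-fold to 2.85-fold. The axon guidance ligand Slit2 was at 22.7, 25.6 and 17.6 CPM against 241, 326 and 222 CPM (log2 -3.62), and Igfbp5 at 61.7, 90.3 and 50.7 CPM against 511, 483 and 672 CPM (log2 -2.96). Members of the insulin-like growth factor binding family stood on both sides, with Igfbp2 higher and Igfbp5 and Igfbp6 lower. Bmp4 and Bmp5 were lower, and the higher calls of Bmp6 and Bmp7 were lost with DESeq2. Wnt16, Nrp1, Slit3, Sema3d, Sema3a and Penk were lower too.

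Of 32 transcription factors known from meningeal fibroblasts, 21 were tested, and 2 were higher and 8 lower (median log2 fold change -0.27). Foxp1 was at 289, 231 and 246 CPM against 831, 832 and 838 CPM (log2 -1.76), and Foxp2 at 114, 78.1 and 101 CPM against 507, 369 and 367 CPM (log2 -2.11). Tbx15 had a log2 fold change of -3.20, and Prrx2, Foxc2, Eya2 and Zic4 were among the others that were lower. Nr2f2 and Eya1 were higher by 1.54-fold and 1.45-fold. Foxc1, a forkhead factor needed for meningeal development, and Zic1 gave log2 fold changes of 0.07 (adjusted p = 0.851) and -0.04 (adjusted p = 0.897). Bnc2, a zinc finger factor on the fibroblast marker list, was at 29.2, 25.6 and 15.6 CPM against 319, 264 and 200 CPM (log2 -3.46), and Vsx1, a homeobox factor, had a log2 fold change of -4.47.

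Of 18 retinoid genes, 8 were tested, 2 were higher and 1 lower: Aldh1a2, which makes retinoic acid, was at 65.0, 75.6 and 70.2 CPM against 20.5, 11.0 and 22.0 CPM (4.44-fold), and Cyp26b1, which degrades it, was 4.28-fold higher. Of 34 growth factor and hormone receptors, 22 were tested, and the leptin receptor Lepr (3.78-fold), Pdgfra (2.84-fold), Pdgfrb (2.29-fold) and Igf1r (1.72-fold) were higher, while Nr3c2, Tgfbr2 and Egfr were lower. Of 22 junction genes, 12 were tested, with Cldn10, Gjb2 and Gjb6 higher by 1.68-fold, 1.67-fold and 1.37-fold and Cdh1, Cdh11 and Gja1 lower. All 9 genes of GABA transport and handling were tested, and 4 were higher, among them Slc6a12 and the GABA receptor subunit gene Gabrb1, and none lower. The other lowest folds of the comparison belonged to Card14, a signaling scaffold (log2 -5.16), Crispld1 (-4.90), Adamtsl3 (-4.52), the mechanically gated channel Piezo2 (-4.46), the potassium channel Kcnk5 (-4.41), Slco4a1, a thyroid hormone transporter (-4.24), and Slc47a2, a paralog of the rule gene Slc47a1 (-4.23).

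Of the 13 meningeal fibroblast markers tested, 6 were higher (Slc7a11, Lum, Igf2, Lama1, Dcn and Bicc1) and Bnc2 and Fbln1 lower, and of 4 outer marker genes outside the rule Mgp and Slc16a1 were lower. Markers of other cells moved with the contrast. Of 9 astrocyte markers tested, Slc6a11, Slc1a2, Gpc5, Aqp4, S1pr1 and Gjb6 were higher and none lower, and the list summed to 1428, 1237 and 1476 CPM in the Foxd1 and Slc47a1 nuclei. The 3 pericyte markers tested, Vtn, Pdgfrb and Atp13a5, were higher, as were Apod and Npy of the 4 ensheathing glia markers, Vip and Sst of the 6 inhibitory neuron markers, Pdgfra of the precursor list and Kl of the choroid plexus list. Of 4 striatal markers, Tac1 was higher and Penk lower, and the endothelial gene Abcb1a was lower. None of the 3 excitatory neuron markers, the 4 oligodendrocyte markers, the single microglia marker and the single mitral or tufted cell marker tested was called.

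Without any nucleus that held a UMI of Aqp4, Aldh1l1 or Slc7a10, in either class, 344 genes were higher and 399 lower of 5816 tested. There the solute carriers gave 14 higher and 10 lower of 29, the log2 fold change of Slc1a3 was 2.34 against 1.53 with all nuclei, and Slc1a2 and Gjb6 of the astrocyte list were still called higher while Slc6a11 had too few counts to be tested. With DESeq2 in place of edgeR, 123 genes were higher and 200 lower, all of them among the 832. DESeq2 called 10 of the 13 higher and 8 of the 9 lower solute carriers. Of the transcription factors it called neither higher gene and 6 of the 8 lower ones, and of the junction genes Cdh11 alone. Slc1a2 was the only astrocyte marker it called. It called 4 of the 6 higher and 5 of the 7 lower collagens, 7 of the 10 higher and 3 of the 5 lower other matrix genes, and 6 of the 11 higher and 8 of the 11 lower secreted signals. Of the retinoid genes it called 1 higher and 0 lower, of the receptors 3 higher and 1 lower, and of the GABA genes 2 higher. Of the other marker calls it lost Bicc1, Fbln1, Atp13a5, Npy, Vip, Sst, Tac1 and Penk. Without the Nav1 KO library 487 genes were called, without C57BL/6J 537 and without BTBR 895.

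**Figure D4:**
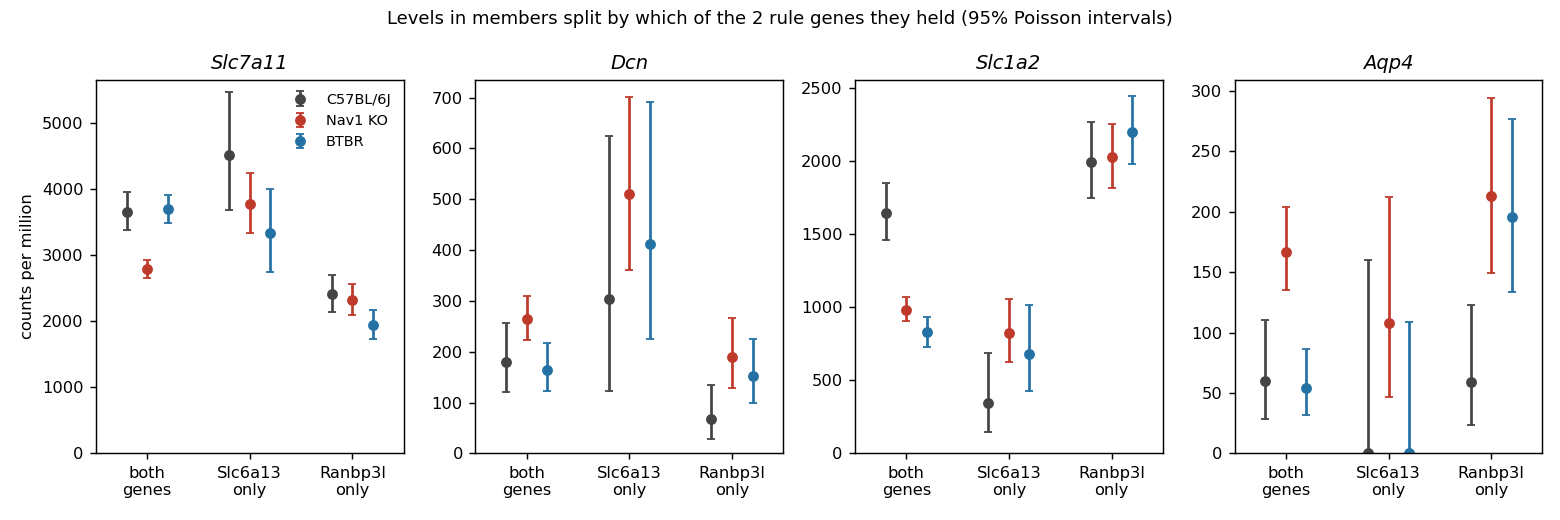
Levels in selected nuclei that held both rule genes, Slc6a13 only or Ranbp3l only, in CPM with exact 95% intervals for counting error, per library. Slc7a11 was lower with Ranbp3l only (1945 to 2403 CPM) than with both genes (2791 to 3696 CPM), and Slc1a2 was higher with Ranbp3l only (1996 to 2202 CPM) than with Slc6a13 only (347 to 821 CPM).

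The selected nuclei were not uniform. Both rule genes were found in 99, 254 and 206 nuclei (53.8%, 66.7% and 66.7%) of C57BL/6J, Nav1 KO and BTBR, Slc6a13 alone in 19, 50 and 25 (10.3%, 13.1% and 8.09%), and Ranbp3l alone in 66, 77 and 78 (35.9%, 20.2% and 25.2%). At these depths a gene that was not counted may still have been present. Slc7a11 was at 3657, 2791 and 3696 CPM in nuclei with both genes, at 4510, 3767 and 3331 CPM with Slc6a13 alone, and at 2403, 2315 and 1945 CPM with Ranbp3l alone. Dcn was at 180, 264 and 165 CPM with both, at 304, 511 and 413 CPM with Slc6a13 alone, and at 67.9, 189 and 153 CPM with Ranbp3l alone. Both genes were thus lowest with Ranbp3l alone in every library, although for Dcn in BTBR the value was close to that with both genes.

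The astrocyte gene Slc1a2 was instead highest with Ranbp3l alone and lowest with Slc6a13 alone in every library. It was at 347, 821 and 678 CPM in nuclei with Slc6a13 alone, at 1646, 984 and 828 CPM with both genes, and at 1996, 2026 and 2202 CPM with Ranbp3l alone. Aqp4, the astrocyte water channel, was at 59.4, 213 and 196 CPM with Ranbp3l alone, and at 0, 108 and 0 CPM with Slc6a13 alone, where only 23059, 74331 and 33921 counts were available. A UMI of Aqp4, Aldh1l1 or Slc7a10 was in 16.7%, 32.5% and 26.9% of the nuclei with Ranbp3l alone and in 19.2%, 25.2% and 13.1% of those with both. In C57BL/6J neither this share nor Aqp4, at 59.8 CPM with both genes, was higher with Ranbp3l alone. Ranbp3l itself was counted in 10.3%, 11.0% and 12.2% of the nuclei chosen by these 3 astrocyte genes without thinning (median 1672, 1998.5 and 2056 UMIs), and Slc6a13 in 0%, 1.22% and 0.905%. In that class Ranbp3l was thus found more widely than Slc6a13 in each library. The rule of that class capped the UMIs of this pair, as stated above. Both shares were therefore limited by the choice of class, and shares without this cap were not measured. With members limited to those that held both rule genes, 601 genes were called against the Foxd1 and Slc47a1 nuclei, 261 higher and 340 lower.

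Against the nuclei chosen by Aqp4, Aldh1l1 and Slc7a10 (87, 246 and 221 nuclei), 682 of 8056 genes tested (8.47%) were higher and 721 (8.95%) lower by edgeR's quasi-likelihood test, and 1340 of these 1403 genes had the same direction in all 3 libraries. The median log2 fold change over all genes was 0.02. DESeq2 called 283 higher and 268 lower, and without the Nav1 KO library edgeR called 933 genes. This comparison separated fibroblast genes from the astrocyte genes that the selected nuclei also carried.

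All 12 fibroblast markers tested were higher, as were 13 of 16 transcription factors, 22 of 28 other matrix genes and 13 of 21 collagens, with 0, 1 and 2 members of these last lists lower. DESeq2 called 11 fibroblast markers, 13 transcription factors, 19 other matrix genes and 8 collagens higher, and 0 members of each list lower. Dcn was at 0, 20.1 and 7.56 CPM in the astrocyte-gene nuclei and 16.9-fold higher in the selected nuclei, Foxc1 at 5.88, 11.8 and 1.89 CPM and 26.4-fold higher, and Ptgds 24.9-fold higher. Of 30 solute carriers, 15 were higher and 6 lower: Slc13a4 was 69.7-fold and Slc22a8 60.9-fold higher, Slc7a11 6.38-fold. The glutamate transporter Slc1a3, which was higher than in the Foxd1 and Slc47a1 nuclei, was close to its level in astrocyte-gene nuclei, 1275, 1435 and 1352 CPM (log2 -0.26, SE 0.10, adjusted p = 0.0449 by edgeR). Slc4a4, an astrocytic bicarbonate transporter, was lower (log2 -1.38). With DESeq2, 12 solute carriers were called higher and 4 lower, and Slc1a3 was not called.

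Several named genes had no count in any of the astrocyte-gene nuclei, where 3 counts over the class correspond to 2.32 CPM. Against this limit Lepr was at least 40.8-fold higher, Pear1, a platelet receptor, at least 26.3-fold, Kl, the co-receptor Klotho, at least 25.3-fold, the cadherin Cdh5 at least 20.5-fold, Itih2, which links to hyaluronan, at least 18.7-fold, Lamc3 at least 16.6-fold and Mrvi1 at least 12.1-fold. Airn, an RNA read antisense to Igf2r, was at least 15.0-fold higher, and whether its reads could be told from those of Igf2r by strand is not given in the sources used here. Aox3, an aldehyde oxidase, was at 231, 146 and 87.8 CPM against 0, 0 and 1.89 CPM.

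On the other side, 6 of 7 astrocyte markers tested were lower, among them Slc1a2 (log2 -1.45) and Slc6a11 (log2 -1.58), and Gjb6, a connexin of both astrocytes and meninges, was higher. Of the 9 GABA genes, Slc6a12 was higher and 4 were lower, among them Gabrb1 and Gabra2. The lowest folds among named genes were those of Myoc (log2 -2.47), at 22.7, 28.1 and 0 CPM against 317, 77.2 and 9.45 CPM, the potassium channel Kcnj16 (-2.46), the epoxide hydrolase Ephx2 (-2.24), 2900052N01Rik (-2.21) and the transcription factor Sox21 (-2.11). Ccdc18 (-2.11), Pcyt1b (-2.06), Sycp2 (-2.02), Mfap3l (-1.96) and Gm20515 (-1.95) completed them. The calls of Ccdc18, Pcyt1b and Sycp2 were lost with DESeq2 (adjusted p = 0.079, 0.106 and 0.183). The remaining lists followed in both directions: 12 of 24 secreted signals were higher and 2 lower, 6 of 21 receptors higher and 3 lower, 4 of 11 junction genes higher and 3 lower, and 4 of 7 retinoid genes higher. DESeq2 called 12 secreted signals higher and 0 lower, 4 receptors higher and 3 lower, and 3 junction genes higher and 3 lower. It called 3 retinoid genes higher, and did not call Gabra2.

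A class chosen by at least 2 UMIs of Vtn, Atp13a5, Rgs5 and Myh11 (40, 164 and 103 nuclei) held genes of more than 1 cell type and is not named as one. The pericyte and smooth muscle list, which holds the genes of this rule, summed there to 4402, 3042 and 3717 CPM, and its members Cspg4, at 221, 64.6 and 116 CPM against 9.74, 20.7 and 19.5 CPM in the selected nuclei (log2 -2.53), and Notch3 (log2 -3.51) were lower in the selected nuclei. The ensheathing glia list summed to 2030, 6243 and 3942 CPM in the same class. Genes lower in the selected nuclei were led by Clca3a1 (log2 -5.52), Foxd3 (-5.20), Slc38a11 (-5.20), Gm12688 (-4.96) and Prss56 (-4.53). Of 5420 genes, 224 (4.13%) were higher and 210 (3.87%) lower by edgeR, and Notum (14.0-fold), Kl (12.8-fold), Fmod (10.8-fold), the giant cadherin Fat4 (10.7-fold), Sned1 (8.32-fold), Aebp1 (7.89-fold) and Slc13a4 (7.10-fold) led the higher genes. The counts fell to 49 and 45 of 3126 genes when the class was chosen without Vtn, to 53 and 50 with DESeq2, and to 113 genes in all without Nav1 KO. Of the 434 called genes, 292 still had a value when the class was chosen without Vtn. Of these 292 genes, 68 were still called and 35 had the other direction. With the class as first chosen, 9 of 12 fibroblast markers tested were higher and none lower.

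Across 18 sums (6 classes in 3 libraries), the genes whose log2(CPM + 1) was most alike to the mean of Slc6a13 and Ranbp3l, among 5643 genes, were Slc13a4 (Pearson r = 0.950), Aldh1a2 (0.943), Slc6a12 (0.941), Dcdc2a (0.924) and Bicc1 (0.922). These sums share libraries and the classes were chosen by marker genes, so the values are a description.

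Some of the genes that were tested and higher than in the Foxd1 and Slc47a1 nuclei lie side by side in the genome. Slc22a8 (chr19:8591254-8611835, mm10) and Slc22a6 (chr19:8618039-8628299) lie 6203 bases apart, also on 1 strand. Col4a6 and Col4a5 on chromosome X start 1308 bases from each other on opposite strands. Dcn and Lum (46984 bases apart) and Itih2 and Itih5 (22174 bases) are further pairs. Of 3193 pairs of adjacent protein-coding genes that were both tested, 27 (0.846%) were both higher. The rule genes were not tested, and are outside this count. Slc6a13 (chr6:121300227-121337733, mm10, plus strand) is followed after 5342 bases by Slc6a12 (chr6:121343076-121365775) on the same strand, and Ranbp3l (chr15:8967949-9067335, plus strand) has Nadk2, a mitochondrial NAD kinase with a log2 fold change of 1.95, after 3924 bases. Whether reads past the end of a gene were counted to its neighbor was not tested.

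The bases before the start of 5 genes are shown, since these genes carried the rule or the transporter differences. They are RefSeq sequences of GRCm38.p6, read 5′ to 3′ on the strand of the gene, and each ends before the first base of the gene in RefSeq or in GENCODE, whichever comes first. Capitals mark matches, on either strand, to GTAAACA (a forkhead motif), GGTGTGA (T-box), GCCNNNGGC (TFAP2), AGGTCA (nuclear receptor) or GTTAAT (HNF1), of which none overlapped another. The windows are chr6:121300038-121300226 (189 bases), chr6:121342324-121342573, chr15:8967699-8967948 and chr19:8617746-8617995 (250 bases each) on the plus strand and chr3:50443615-50443863 (249 bases) on the minus strand.
Slc6a13: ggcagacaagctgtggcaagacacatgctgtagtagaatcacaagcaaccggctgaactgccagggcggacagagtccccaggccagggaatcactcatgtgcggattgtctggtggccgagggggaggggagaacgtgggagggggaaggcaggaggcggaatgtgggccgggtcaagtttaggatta
Slc6a12: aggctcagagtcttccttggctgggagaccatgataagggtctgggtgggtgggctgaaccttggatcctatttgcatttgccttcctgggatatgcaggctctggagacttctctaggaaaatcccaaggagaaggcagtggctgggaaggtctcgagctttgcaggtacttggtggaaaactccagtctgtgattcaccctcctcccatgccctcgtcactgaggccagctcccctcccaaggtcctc
Ranbp3l: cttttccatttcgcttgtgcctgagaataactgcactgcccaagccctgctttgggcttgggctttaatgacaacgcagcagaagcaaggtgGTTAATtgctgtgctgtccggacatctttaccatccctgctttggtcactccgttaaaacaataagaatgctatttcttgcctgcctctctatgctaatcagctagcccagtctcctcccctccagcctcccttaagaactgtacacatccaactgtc
Slc22a6: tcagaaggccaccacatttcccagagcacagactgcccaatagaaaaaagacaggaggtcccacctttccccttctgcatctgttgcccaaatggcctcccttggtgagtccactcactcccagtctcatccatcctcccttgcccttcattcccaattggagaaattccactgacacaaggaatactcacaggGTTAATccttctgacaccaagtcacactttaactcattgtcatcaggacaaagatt
Slc7a11: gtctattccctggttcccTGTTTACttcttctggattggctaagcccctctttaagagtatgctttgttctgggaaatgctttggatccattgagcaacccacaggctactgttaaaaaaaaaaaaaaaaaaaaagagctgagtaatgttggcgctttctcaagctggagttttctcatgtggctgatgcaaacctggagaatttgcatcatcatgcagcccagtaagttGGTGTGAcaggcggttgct

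GTTAAT began 158 bases from the end of the window of Ranbp3l and 56 bases from that of Slc22a6. Slc7a11 held GTAAACA on the opposite strand at 231 bases from the end and GGTGTGA at 19 bases from it, and the windows of Slc6a13 and Slc6a12 held none of the 5 motifs. Of 27025 promoter windows of 250 bases, 6.52% held GTTAAT, 3.09% GTAAACA, 3.31% GGTGTGA, 13.6% GCCNNNGGC and 13.8% AGGTCA. A match describes the letters and not a bound site.

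Between libraries, the selected nuclei were compared by ratios of CPM with exact intervals for counting error, with no test. Nav1, the deleted gene, was at 140, 92.7 and 74.1 CPM in C57BL/6J, Nav1 KO and BTBR, and at 347, 267 and 147 CPM in all other nuclei. These libraries count the 3′ ends of transcripts and the deletion is in exon 1, and where the Nav1 reads map was not examined, so this level was not used to check the deletion. Xist, the RNA of the inactive X chromosome, had 0, 2 and 1 counts in these male samples. Nnt, a mitochondrial transhydrogenase, was at 19.5, 35.4 and 23.4 CPM. Malat1, a nuclear RNA, took 28.6%, 33.2% and 29.5% of the counts.

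Of 3923 genes with at least 50 counts over the Nav1 KO and C57BL/6J nuclei, 156 (3.98%) were 2-fold or more higher and 120 (3.06%) 2-fold or more lower in Nav1 KO, with a median ratio of 0.933 and a range from the 5th to the 95th percentile of 0.539 to 1.84. With TMM scaling in place of CPM the median was 1.05 and the split was 220 higher and 62 lower. By list, 0 of 22 solute carriers, 1 of 12 collagens, 3 of 19 other matrix genes and 1 of 13 transcription factors were 2-fold or more higher and none of them lower. Whether these small counts differed from the shares over all genes was not tested.

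Ptgds stood out by its abundance, at 12518 CPM in Nav1 KO against 5495 CPM in C57BL/6J, a ratio of 2.28 (2.16 to 2.40). It was also higher in the Foxd1 and Slc47a1 nuclei (3075 against 1317 CPM) and in all other nuclei (535 against 150 CPM). The matrix genes were Ogn, with a ratio of 3.43 (1.57 to 8.88), Fbln1, with 2.44 (1.32 to 4.93), Pcolce, which aids collagen processing, with 2.36 (1.43 to 4.12), and Col5a1, with 2.31 (1.03 to 6.08). In the other nuclei Ogn, at 3.63 against 1.25 CPM, Fbln1, at 9.41 against 2.89 CPM, and Pcolce, at 6.78 against 2.29 CPM, were higher in Nav1 KO too, while Col5a1 was at 23.6 against 29.9 CPM. Ebf1, a transcription factor, gave 2.14 (1.08 to 4.70), and the guidance receptor Nrp1 0.478 (0.264 to 0.877). The 8 astrocyte markers measured went both ways, with a median ratio of 1.26: Aqp4 was at 171 against 55.2 CPM, a ratio of 3.09 (1.86 to 5.46), Slc1a2 gave 0.704 (0.632 to 0.785) and Fgfr3 0.585 (0.393 to 0.879). Of 4 ensheathing glia markers, Fabp7 and Npy each gave 2.36 (1.24 to 4.94). All these rested on 1 pooled library a side.

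The highest ratios belonged to Dbi, the diazepam binding inhibitor, with 81 against 6 counts (5.07, 2.23 to 14.2), Sdf2 (5.07), Tssc4 (4.98), Sat2 (4.51), the transcription factor Jun (4.51), Gm20033 (4.26), the astrocyte membrane gene Mlc1 (4.21) and Spcs1 (4.13), each with 4 to 6 counts in C57BL/6J. The lowest were Kcnn2 (0.296), Erc2 (0.297), Mrpl3 (0.301), Csmd3 (0.308), Unc13a (0.322), Cdr1os (0.333), Rpl26 (0.334) and Gm26871 (0.336). Erc2 and Unc13a, genes of the presynaptic active zone, and Csmd3 are abundant in neurons, and all were lower in the other nuclei of Nav1 KO too, at 279 against 390, 167 against 266 and 337 against 590 CPM. Among abundant RNAs, singled out after their values were seen, Meg3, a noncoding RNA of neurons, was at 4395 against 10695 CPM, a ratio of 0.411 (0.392 to 0.431), and it too was lower in the other nuclei, at 21114 against 26696 CPM. Aebp1 was at 855 against 425 CPM, a ratio of 2.01 (1.67 to 2.44), and Cst3, the protease inhibitor cystatin C, at 1815 against 799 CPM, a ratio of 2.27 (1.98 to 2.61), both also higher in the other nuclei. The part of neuronal RNA in the levels in the selected nuclei was not tested.

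**Figure D5:**
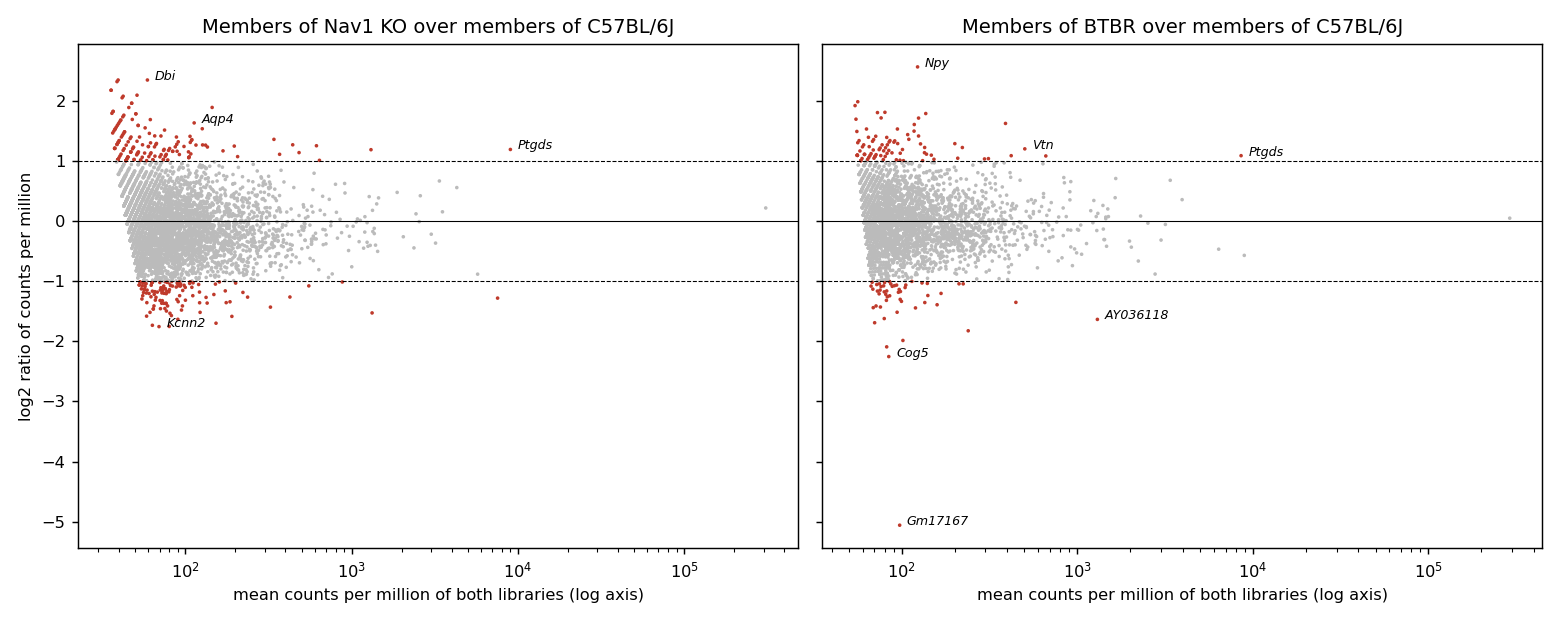
Log2 ratio of CPM in the selected nuclei of Nav1 KO (left) and BTBR (right) over those of C57BL/6J against the mean of both libraries on a log axis, each point a gene with at least 50 counts. Dashed lines mark 2-fold, red points lie past it, and Gm17167 is drawn at the upper bound of its ratio, 0.0300, since BTBR had 0 counts.

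In BTBR, 87 of 2859 genes (3.04%) were 2-fold or more higher and 53 (1.85%) lower than in C57BL/6J, with a median ratio of 0.979 and percentiles of 0.583 to 1.80. TMM scaling gave 111 higher and 42 lower. Of 19 solute carriers only Slc22a6 passed, at 201 against 94.2 CPM, a ratio of 2.13 (1.40 to 3.34), and none of 7 collagens and 12 transcription factors did. Among 11 other matrix genes 2 were higher (Lama1 and Pcolce), and among 9 secreted signals 2 (Igfbp2 and Ptgds). Whether these counts differed from the shares over all genes was not tested. Ptgds was at 11655 against 5495 CPM, a ratio of 2.12 (2.01 to 2.24), Pcolce gave 3.04 (1.82 to 5.35), Lama1 2.02 (1.20 to 3.58), Igfbp2 2.04 (1.53 to 2.77) and Vtn 2.29 (1.82 to 2.91). Of these genes, 5 were also 2-fold or more higher in the other nuclei of BTBR: Vtn at 40.5 against 13.4, Ptgds at 392 against 150, Igfbp2 at 17.2 against 5.44, Slc22a6 at 5.06 against 2.03 and Pcolce at 4.91 against 2.29 CPM. These ratios and those of Nav1 KO share the C57BL/6J library.

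Npy, a neuropeptide and a marker on the ensheathing glia list, had the highest ratio in BTBR, 108 against 11 counts (5.90, 3.17 to 12.2), and was also higher in the Foxd1 and Slc47a1 nuclei of BTBR, at 56.2 against 12.3 CPM, but lower in the astrocyte-gene nuclei, at 24.6 against 200 CPM, while all other nuclei together were at 112 against 116 CPM. Lrig3 (3.95), Fam57b (3.78), Ecsit (3.50), Btbd17 (3.48), Ccn2, a matricellular growth factor (3.45), Rnf227 (3.28) and the early response gene Ier3 (3.27) followed. In the other nuclei of BTBR these were also higher, by 2-fold or more for Fam57b (167 against 63.5 CPM), Ecsit (138 against 48.2), Btbd17 (21.1 against 7.45) and Rnf227 (130 against 62.0), and by less for Lrig3 (8.03 against 4.06), Ccn2 (23.9 against 16.6) and Ier3 (11.7 against 7.81). Gm17167 had 0 counts in BTBR against 60 in C57BL/6J, and was at 0.950 against 255 CPM in the other nuclei. Its ratio was 0.0300 with 3 counts in place of the 0, and the interval for counting error ran up to 0.0381. Cog5 (0.210), Galnt1 (0.234), Cisd2 (0.252), the mitochondrial mt-Nd3 (0.282), Tdp2 (0.310), AY036118 (0.322) and Btaf1 (0.325) were next. All of these but Tdp2, which was at 30.3 against 30.4 CPM, were also lower in the other nuclei of BTBR.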

How the data were processed

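The authors deposited UMI counts per gene and nucleus for 3 libraries, made with Cell Ranger 6.0.0 against mm10 per the submitters' processing notes. Whether introns and strand were used in counting is not given in the sources used here. Genes seen in 3 or more nuclei were used, and nuclei with fewer than 200 genes or with 10% or more of mitochondrial counts were removed. The kept numbers were 14630, 14056 and 14777 of 15402, 14623 and 15238 barcodes. The design text gives 14630, 14056 and 15238 cells, the last being the number before this filter. Kept nuclei of different libraries shared 55 to 66 barcodes. Scrublet (in scanpy 1.11.5) called 1, 1 and 0 doublets and so did not work, and no doublets were removed. The highest 10% of its scores held 11.4%, 9.19% and 11.3% of the selected nuclei.

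Counts were summed per library and class, and tested with edgeR 4.0.16 in R 4.3.3 (TMM, filterByExpr, quasi-likelihood, library as a block because both classes came from the same library, Benjamini-Hochberg adjustment over all genes tested). DESeq2 1.42.0 was an alternative. On counts simulated for the comparison with the Foxd1 and Slc47a1 nuclei (7613 genes), edgeR called 50 of 50 genes at 4-fold, 50 of 50 at 2-fold, 39 of 50 at 0.5-fold and 50 of 50 at 0.25-fold, with 8 unchanged genes called. The changed genes were drawn only from those above a minimum expected count, and all genes were simulated with a common dispersion. Recovery of genes with lower counts was therefore not measured. Python 3.11.15 with scipy 1.17.1 gave exact intervals (Clopper-Pearson, Poisson and binomial split) at 95%. A count of 0 was taken to allow 3 counts. Counts come from the 3′ ends of transcripts, so CPM is not a level per length, and a gene called the most abundant of a list is the one with the most counts.

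Named genes were the rule genes, Dcn, Col1a2, Nav1, Xist and Nnt, the 10 highest and 10 lowest called folds per class comparison with at least 10 CPM and the same direction in 3 libraries, the 8 highest and 8 lowest ratios per library comparison, called members of the lists, and the 5 genes most alike. Genes leading over other nuclei, the abundant genes Meg3, Aebp1 and Cst3 between libraries, genes of the Vtn class beyond this rule and Malat1 were chosen after their values were seen. The selected nuclei and the lists were chosen with earlier results of these data known. GENCODE M21 gave positions. A few list members are not reported here by name, in the text or the plot of fold changes, and stay in the counts.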

Additional observations from a re-analysis of the deposited data

How the results depend on the processing

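No ratio of shares changed direction. Against the Foxd1 and Slc47a1 nuclei (832 genes called), DESeq2 called 323 and nuclei thinned to 500 UMIs 292, and leaving out a library gave 487 to 895. Without the replicate block on library the counts were 531, 264 for the Vtn class and 917 for the astrocyte-gene nuclei, and both classes shared each library. The Vtn class (434 genes) gave 103 with DESeq2, 254 without neuronal UMIs, 94 when chosen without Vtn, 142 thinned, and 113 to 417 with a library left out. The astrocyte-gene nuclei (1403) gave 551, 478 thinned and 933 to 1260. Of the 434 genes called for the Vtn class, 292 had a value without Vtn, and 35 of these had the other direction. The share of Nav1 KO over C57BL/6J became 2.67 with both rule genes, 2.77 with at least 500 genes a nucleus and 3.47 thinned to 1000 UMIs, and that of BTBR 2.06, 2.03 and 2.43. Nav1 KO over BTBR became 1.11 at 500 UMIs (0.900 to 1.37) and 1.15 without astrocyte-gene UMIs (0.967 to 1.37), and both intervals included 1. Genes past 2-fold in Nav1 KO (276) became 150 without neuronal UMIs, 158 without astrocyte-gene UMIs, 160 with both rule genes, 40 thinned, 71 at a minimum of 100 counts and 1038 at 20. In BTBR (140) they became 62, 84 with both genes, 89 with at least 3 rule UMIs, 18 thinned, 33 and 751. Thinning, higher minimums and the limits on nuclei (neuronal, astrocyte-gene or rule UMIs) tested fewer genes. In Nav1 KO the share of genes past 2-fold was 7.04% with all selected nuclei and 6.29% without neuronal UMIs. It was 7.42% without astrocyte-gene UMIs and 6.85% with both rule genes. In BTBR it was 4.90% with all selected nuclei, 4.18% without neuronal UMIs, 6.15% with both rule genes and 5.25% with at least 3 rule UMIs. Of 152 class differences of single genes, DESeq2 kept 106 and the fit without the block 126, and none of these 152 reversed. Leaving out C57BL/6J lost 29 of the 151 that still had a value, leaving out Nav1 KO 21 of 134 and leaving out BTBR 10 of 150. In 58 settings of counts and shares the value stayed within 1.5 times the count or within the interval of the ratio, and in 35 it did not. The depth of the C57BL/6J nuclei, 307905 counts, and 1 library a side limit the ratios of single genes, and the choice of Vtn, which other cells also carry, limits the Vtn class.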
